A study of Mus musculus with 12 samples.

Results

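The genes described here are 10 markers of hepatic stellate cells and of the myofibroblasts that these cells can become, out of 57180 genes in the deposited expression table. They were chosen by name: the rows whose gene IDs map to Lrat (ENSMUSG00000028003), Hgf (ENSMUSG00000028864), Reln (ENSMUSG00000042453), Acta2 (ENSMUSG00000035783), Tagln (ENSMUSG00000032085), Des (ENSMUSG00000026208), Pdgfra (ENSMUSG00000029231), Pdgfrb (ENSMUSG00000024620), Dcn (ENSMUSG00000019929) and Sparc (ENSMUSG00000018593). All 10 were found. Lrat, Hgf and Reln are markers of the quiescent stellate cell, and the other 7 are grouped here as activated genes, although quiescent stellate cells are known to carry some of them, such as Des and the PDGF receptors.

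Hepatic stellate cells lie between the hepatocytes and the sinusoidal endothelium, where in healthy liver they store vitamin A as retinyl esters. Liver injury can drive them to lose these stores, multiply in response to PDGF, take on a contractile actin cytoskeleton and secrete matrix, and TGF-beta is the best known signal for that change. In skin the same contractile and matrix genes belong to other cells, mainly dermal fibroblasts, pericytes and the smooth muscle of vessels and hair follicles.

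The study measured gene expression in mice that received CCl4 (carbon tetrachloride, which hepatocytes turn into a toxic radical) or its vehicle. Liver from CCl4-treated C57 mice and liver from vehicle-treated C57 mice were sequenced as bulk RNA, with 3 libraries in each group. Dorsal skin CX3CR1+ cells from CCl4-treated and from vehicle-treated Cx3cr1-creER:Ai9 mice were sequenced by smart-seq, a full-length method for little RNA, again with 3 libraries in each group. The 3 libraries of a group are described as biological replicates. The creER driver is expressed from the promoter of Cx3cr1, a chemokine receptor of monocytes, macrophages and some other immune cells, and Ai9 is a Cre-activated red fluorescent reporter carried by both skin groups. The sources used here do not state the dose, the time after treatment, the age or sex of the mice, the tamoxifen schedule or how the skin cells were collected. The design text speaks of hepatocytes while the sample labels say liver, so liver is the name used here.

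The values are TPM (transcript abundance scaled for length, with every library brought to the same total), so they hold no sequencing depth and no counting error can be given. Hepatocyte markers were abundant in the liver libraries: Alb, the serum albumin gene, lay between 8884 and 21657 TPM with CCl4, against 40168 to 45635 TPM with vehicle. Genes encoded by the mitochondrial genome took 46.6 to 56.6% of the total with CCl4, against 17.3 to 19.5% with vehicle, and every other gene's TPM is lowered by such a share. Cx3cr1 itself was listed at 5.28, 0 and 0.28 TPM in the 3 skin CCl4 libraries, against 3.91, 0.27 and 0.91 TPM in the skin vehicle libraries. Of the skin libraries, CCl4 replicate 2 stood apart by its endothelial markers and CCl4 replicate 3 by its macrophage and Langerhans cell markers. The members' skin changes are given with and without these libraries. The CCl4 library then left, replicate 1, was itself the lowest of the skin libraries for dermal fibroblast markers, with a sum of 190.2 TPM. Changes are differences in mean log2(TPM + 1), CCl4 minus vehicle, a scale that understates changes of genes with low TPM. Tests were limma's, over every gene that reached 1 TPM in 3 or more of a tissue's 6 libraries, and a call means a p below 0.05 after Benjamini-Hochberg adjustment.

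All 10 genes were higher in every liver library from CCl4-treated mice than in any from vehicle-treated mice. Of the 10, 6 passed the filter on low TPM, and limma called all 6 higher, against 10.3% of the 10385 genes tested in liver. Of these 6, Lrat, Hgf and Tagln, passed the filter only through the CCl4 libraries, so their presence in the test already required a difference; Reln, Dcn and Sparc also reached 1 TPM with vehicle. Without the filter limma called all 10 higher, against 8.03% of 24989 genes. Complete separation of the groups upwards, which all 10 showed, was found for 15.1% of those 24989 genes. The median change over the 10385 genes tested was -0.59 on the log2 scale, with 1073 called higher and 5304, or 51.1%, called lower. That split moved with the scaling: it was 2173 higher and 1658 lower when TPM was rescaled without the mitochondrial genes, with a median of 0.04, and the 10 genes stayed higher under each scaling tried. In bulk tissue, more cells of a type and more RNA per cell cannot be told apart.

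**Figure D1:**
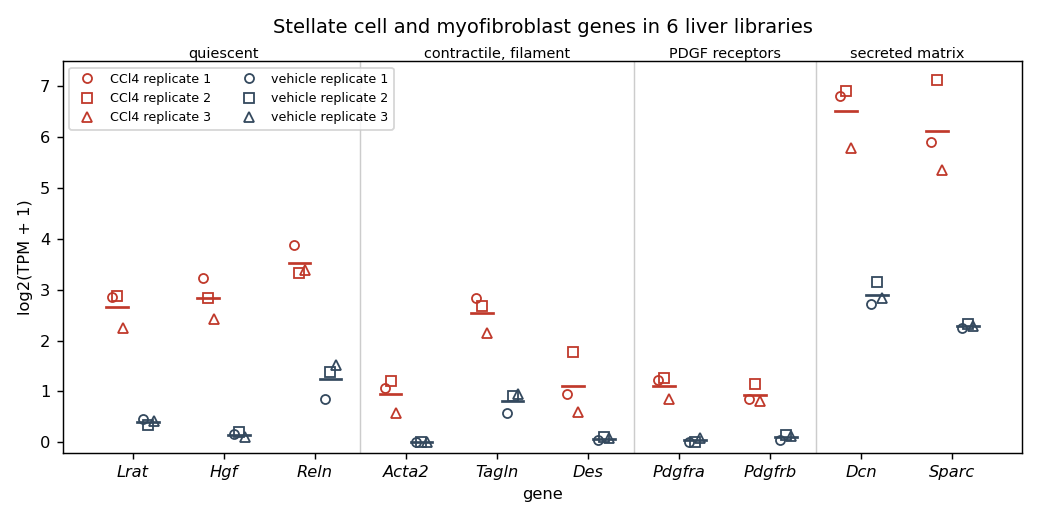
Level of each of the 10 genes, as log2(TPM + 1), in the 3 CCl4 liver libraries (red) and the 3 vehicle liver libraries (dark blue); symbols mark the replicates and bars the group means. No gene has an overlap between the groups, Acta2 is at 0 in the vehicle libraries, and CCl4 replicate 3 (triangle) is the lowest CCl4 library for every gene but Reln.

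The quiescent markers rose with CCl4. Lrat encodes lecithin retinol acyltransferase, the enzyme that esterifies retinol for storage. It had 6.27, 6.35 and 3.72 TPM in CCl4 livers, against 0.38, 0.26 and 0.34 TPM in vehicle livers. Every CCl4 library was therefore above every vehicle library, with a change of 2.25 ± 0.21 (SE; limma, adjusted p = 3.22e-05), and the mean TPM was 16.7-fold higher.

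Hgf encodes hepatocyte growth factor, a mitogen that stellate cells release and hepatocytes receive. It had 8.42, 6.17 and 4.33 TPM in CCl4 livers, against 0.12, 0.15 and 0.07 TPM in vehicle livers. Of the 3 quiescent markers Hgf had the largest fold of mean TPM, 55.6, over vehicle levels close to the smallest value the table can hold above 0; its log2 change was 2.68 ± 0.22 (SE; limma, adjusted p = 1.25e-05). A predicted gene on the same strand, Gm43489, holds 5.65% of the 75-base stretches of the Hgf transcripts, so a small part of its reads could have been assigned to either gene.

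Reln encodes reelin, a secreted glycoprotein best known from the developing brain and used as a stellate cell marker in liver. Its levels were 13.72, 9.04 and 9.40 TPM in CCl4 livers, against 0.80, 1.60 and 1.88 TPM in vehicle livers. The groups did not overlap, and Reln was the most abundant quiescent marker in all 6 liver libraries, per transcript length. Its change was 2.28 ± 0.24 (SE; limma, adjusted p = 6.60e-05), and its mean TPM was 7.51-fold higher.

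The contractile and filament genes were low in liver. Acta2 encodes smooth muscle alpha-actin, the standard marker of myofibroblasts. It had 1.11, 1.32 and 0.49 TPM in CCl4 livers and was listed at 0 in all 3 vehicle livers. Only CCl4 replicates 1 and 2 were above 1 TPM, so Acta2 did not pass the filter. Its difference in mean log2(TPM + 1) was 0.96, with an exact two-sided permutation p of 0.1, the smallest that 3 libraries against 3 allow; in the unfiltered limma fit the adjusted p was 0.0156. No fold is given against a group listed at 0.

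The stretches upstream of Acta2 and Lrat are shown because these genes are the usual marker of each state and both were higher with CCl4. RefSeq's promoter table (GRCm38.p6) matched 7 of the 10 genes, and the 250 bases before the annotated start are printed 5′ to 3′ on the gene's own strand, which is the minus strand for both, at chr19:34255374-34255623 for Acta2 and chr3:82903975-82904224 for Lrat. Capitals mark matches to the CArG box, the motif bound by serum response factor, searched as CC and GG with 6 bases between them of which at most 1 is G or C; the pattern reads alike on both strands.
Acta2: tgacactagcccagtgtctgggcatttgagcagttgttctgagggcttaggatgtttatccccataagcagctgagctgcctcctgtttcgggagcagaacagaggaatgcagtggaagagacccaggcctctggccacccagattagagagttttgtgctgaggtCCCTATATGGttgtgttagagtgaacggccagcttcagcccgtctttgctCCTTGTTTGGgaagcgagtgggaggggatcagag
Lrat: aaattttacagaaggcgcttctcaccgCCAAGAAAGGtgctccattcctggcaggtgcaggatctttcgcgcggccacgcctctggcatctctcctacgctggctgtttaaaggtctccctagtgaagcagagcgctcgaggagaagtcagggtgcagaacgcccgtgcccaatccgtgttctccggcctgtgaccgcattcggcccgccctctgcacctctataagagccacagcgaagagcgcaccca
The Acta2 stretch holds 2 matches, with first bases 84 and 34 bases before the start, and the Lrat stretch holds 1, with its first base 223 bases before it. Such a match is found in 9.98% of the 32851 windows of 300 bases (250 before to 50 after a start) in the table, and a match with no G or C between the outer pairs in 1.63%; neither gene's window holds a match of the stricter kind. The windows of Hgf, Reln, Des, Pdgfra and Sparc hold no match of either kind. A match is a description of the letters, and binding was not measured.

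Tagln encodes transgelin, an actin-binding protein of smooth muscle and early myofibroblasts. It had 6.12, 5.39 and 3.42 TPM in CCl4 livers, against 0.49, 0.89 and 0.93 TPM in vehicle livers. The groups did not overlap, and the change was 1.74 ± 0.22 (SE; limma, adjusted p = 0.000164), the smallest of the 6 that passed the filter. The Tagln value is less certain than the others, because 67.9% of its exon bases in GENCODE M21 overlap exons of Pcsk7 and Gm48529 on the opposite strand, and the sources used here do not state whether reads were counted by strand. Pcsk7, a proprotein convertase, had 2.14, 2.95 and 2.96 TPM in CCl4 livers, against 5.07, 5.24 and 4.80 TPM in vehicle livers, and so moved the other way (change -0.72 ± 0.19, SE; limma, adjusted p = 0.00774).

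Des encodes desmin, an intermediate filament protein of muscle and, in rodents, of stellate cells. It had 0.92, 2.41 and 0.51 TPM in CCl4 livers, against 0.03, 0.07 and 0.06 TPM in vehicle livers. CCl4 replicate 2 was well above the other CCl4 libraries, but even the lowest of these exceeded every vehicle library. The difference was 1.03 on the log2 scale, below the filter, with an exact permutation p of 0.1 and an unfiltered limma adjusted p of 0.0482.

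Both PDGF receptor genes were near 1 TPM with CCl4 and near 0 with vehicle. Pdgfra, the receptor of fibroblast lineages, had 1.34, 1.41 and 0.81 TPM in CCl4 livers, against 0.01, 0.01 and 0.06 TPM in vehicle livers. Pdgfrb, the receptor through which PDGF drives stellate cell proliferation, had 0.80, 1.22 and 0.75 TPM in CCl4 livers, against 0.04, 0.10 and 0.09 TPM in vehicle livers. Neither gene's groups overlapped, and neither gene passed the filter. The differences were 1.08 for Pdgfra and 0.83 for Pdgfrb, each with an exact permutation p of 0.1, and the unfiltered limma adjusted p was 0.0108 for Pdgfra and 0.0119 for Pdgfrb.

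The secreted matrix genes were the most abundant of the 10 and had the largest changes on the log2(TPM + 1) scale. By fold of mean TPM, Hgf with 55.6, Pdgfra with 44.5 and Des with 24.0 exceeded Sparc with 20.4 and Dcn with 14.5. Dcn encodes decorin, a small proteoglycan that binds collagen fibrils and TGF-beta. It had 111.03, 118.82 and 54.06 TPM in CCl4 livers, against 5.62, 7.85 and 6.10 TPM in vehicle livers. Even the lowest CCl4 library was several times the highest vehicle library, and the change was 3.60 ± 0.33 (SE; limma, adjusted p = 3.22e-05).

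Sparc encodes osteonectin, a collagen-binding glycoprotein that endothelial cells also express. It had 58.67, 138.56 and 39.75 TPM in CCl4 livers, against 3.72, 4.03 and 3.85 TPM in vehicle livers. The vehicle libraries lay close together while CCl4 replicate 2 stood above the other CCl4 libraries, as it did for Des. The change of 3.84 ± 0.39 (SE; limma, adjusted p = 5.06e-05) was larger than that of 99.9% of the genes tested in liver. Among the members that passed the filter the corresponding shares ran from 96.1% for Tagln to 99.8% for Dcn.

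The quiescent genes as a set did not lag behind the activated ones, although Dcn and Sparc had larger log2 changes than any quiescent gene. The mean log2(TPM + 1) of Lrat, Hgf and Reln was 3.01 ± 0.32 in CCl4 livers and 0.60 ± 0.10 in vehicle livers (SD, n = 3 each), a difference of 2.40. The corresponding mean of the 7 activated genes was 2.75 ± 0.43 in CCl4 livers and 0.89 ± 0.07 in vehicle livers (SD, n = 3 each), a difference of 1.87. Within each library, activated less quiescent was -0.25 ± 0.35 in CCl4 livers, ranging from -0.52 to 0.14, and 0.28 ± 0.05 in vehicle livers, ranging from 0.22 to 0.32 (SD, n = 3 each). All 3 CCl4 libraries thus lay below all 3 vehicle libraries, by -0.54 in the mean. No test was run on this measure, since the genes were chosen with earlier results known. It depends on the low genes: the difference was 0.014 with a pseudocount of 5 and 0.13 without Des and the PDGF receptors.

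**Figure D2:**
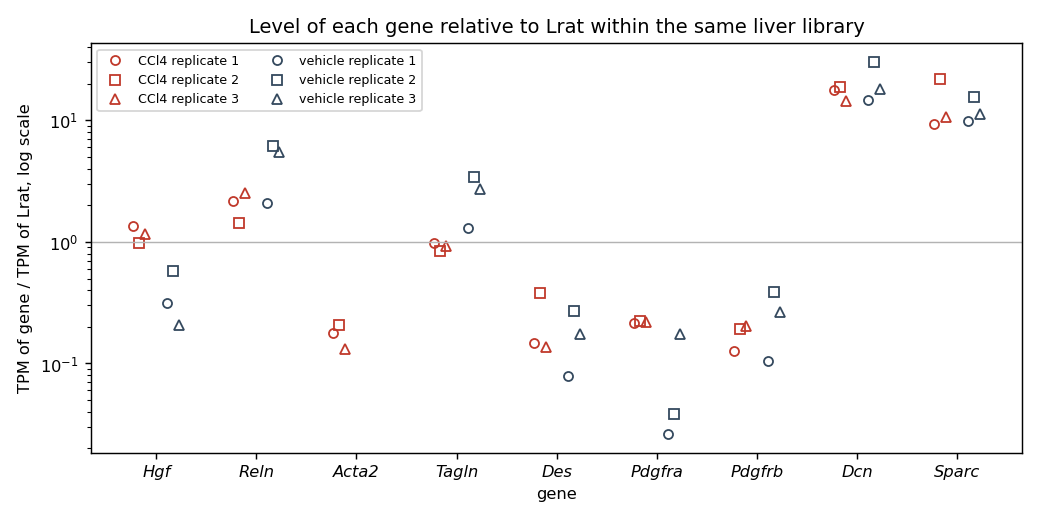
TPM of each of the other 9 genes divided by the TPM of Lrat in the same liver library (log axis), CCl4 libraries in red and vehicle libraries in dark blue, with symbols for replicates. Hgf and Pdgfra lie higher relative to Lrat with CCl4 and Tagln lies lower; the vehicle points of Acta2 are at 0 and cannot be drawn.

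Ratios within a library do not move with the total to which TPM is scaled. Hgf relative to Lrat was 0.972 to 1.34 in CCl4 livers, against 0.206 to 0.577 in vehicle livers, and Pdgfra relative to Lrat was 0.214 to 0.222 in CCl4 livers, against 0.0263 to 0.176 in vehicle livers. Tagln relative to Lrat went the other way, with 0.849 to 0.976 in CCl4 livers, against 1.29 to 3.42 in vehicle livers. These 3 ratios did not overlap between the groups. Reln, Des, Pdgfrb, Dcn and Sparc overlapped relative to Lrat; Dcn, for example, was 14.5 to 18.7 times Lrat in CCl4 livers and 14.8 to 30.2 times Lrat in vehicle livers. Acta2 was 0.132 to 0.208 of Lrat in CCl4 livers and was listed at 0 in vehicle livers, so Lrat exceeded Acta2 in all 6 liver libraries. Vehicle ratios rest on values of a few hundredths of a TPM for several genes, and the table gives 2 decimals.

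Further markers of both states, from lists chosen with earlier results of these data known, were mostly higher too. Of 20 other quiescent stellate cell markers, 12 were tested, and 10 were higher, 1 was lower and 1 was not called. Over all genes tested 10.3% were called higher and 51.1% lower. The median change of the list was 1.76, against -0.59 for all genes tested. Of the 12, 5 passed the filter only through the CCl4 libraries. Prelp, a matrix proteoglycan, averaged 8.75 ± 1.62 TPM in CCl4 livers and 0.83 ± 0.18 TPM in vehicle livers (SD, n = 3 each). Colec11, a collectin, averaged 16.9 ± 5.73 TPM in CCl4 livers and 1.49 ± 0.27 TPM in vehicle livers. The lower one was Pparg, an adipogenic nuclear receptor of quiescent cells, named because it was the exception, with a change of -0.66 ± 0.20 (SE; limma, adjusted p = 0.0153); it was not called under 3 of the 4 other scalings.

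Of 25 activated myofibroblast markers, 15 were tested, 13 were higher, 1 was lower and 1 was not called, with a median of 2.38; over all genes tested 10.3% were called higher. Of the 15, 8 passed the filter only through the CCl4 libraries, Col3a1 and Thbs1 among them. Col3a1, a fibrillar collagen chain, averaged 16.6 ± 8.05 TPM in CCl4 livers and 0.47 ± 0.08 TPM in vehicle livers (SD, n = 3 each). Thbs1, the TGF-beta-activating thrombospondin, averaged 4.55 ± 1.21 TPM in CCl4 livers and 0.0033 ± 0.0058 TPM in vehicle livers. The lower gene, named as the exception, was Fn1, encoding fibronectin, which hepatocytes secrete in quantity; its change of -0.90 was not called lower under any of the 4 other scalings and was called higher under 1 of them.

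**Figure D3:**
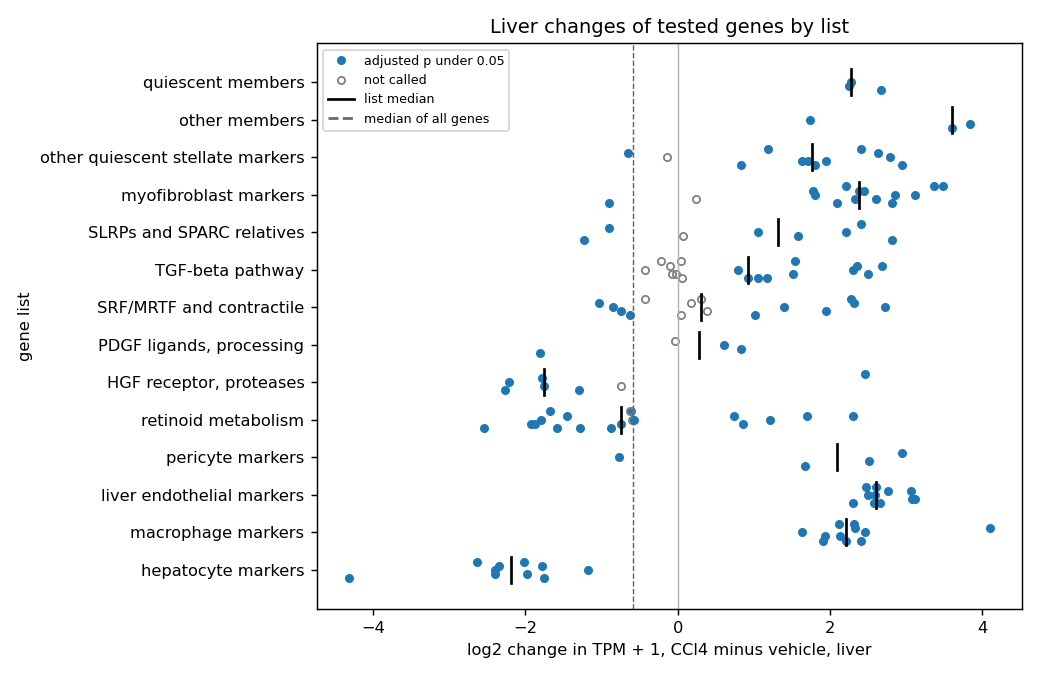
Change in liver, as log2(TPM + 1) with CCl4 minus vehicle, of every gene tested in each list; filled points were called by limma at an adjusted p under 0.05, open points were not, black bars are list medians and the dashed line is the median of all genes tested, -0.59. Stellate, myofibroblast, endothelial and macrophage lists lie to the right, and hepatocyte markers and the HGF receptor list to the left.

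Some relatives of decorin and osteonectin were higher as well. Of 15 other small leucine-rich proteoglycans and SPARC relatives, 8 were tested, with a median of 1.32. Of these, 5 were higher (Bgn, Lum, Prelp, Sparcl1 and Fstl1), 2 were lower (Omd and Smoc1) and 1 was not called (Smoc2). Over all genes tested 10.3% were called higher and 51.1% lower. Of the 8, 3 passed the filter only through the CCl4 libraries and 1 only through the vehicle libraries. Bgn and Lum are also counted among the activated myofibroblast markers above, and Prelp among the other quiescent markers. Lum, encoding lumican, averaged 4.35 ± 1.53 TPM in CCl4 livers and 0.12 ± 0.05 TPM in vehicle livers (SD, n = 3 each). Bgn, encoding biglycan, averaged 33.6 ± 15.0 TPM in CCl4 livers and 3.61 ± 0.18 TPM in vehicle livers. These proteoglycans bind collagen or growth factors in the matrix.

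The partners of the members did not all rise. For the PDGF receptors, 4 of 7 ligand and processing genes were tested: Pdgfa, a ligand, and Nrp1, a coreceptor, were higher, Furin, a protease that cleaves PDGF precursors, was lower, and Pdgfc was not called. Over all genes tested 10.3% were called higher and 51.1% lower. Furin averaged 9.75 ± 3.97 TPM in CCl4 livers and 35.1 ± 1.99 TPM in vehicle livers (SD, n = 3 each). Pdgfb, the classical ligand of Pdgfrb, was below the filter at 0.42 ± 0.17 TPM in CCl4 livers and 0.04 ± 0.01 TPM in vehicle livers; it is named because of that role.

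For Hgf, 7 of 11 receptor, protease and inhibitor genes were tested, of which 1 was higher, 5 were lower (Met, Hgfac, Hpn, Plg and Klkb1) and 1 was not called (Spint2); over all genes tested 51.1% were called lower. The lower calls depended on scaling, with 3 under quantile normalization and 2, beside 2 higher calls, without the mitochondrial and the 10 most abundant genes; Hgfac and Hpn lost their calls under both. Met, the HGF receptor, averaged 3.12 ± 1.57 TPM in CCl4 livers and 12.5 ± 0.35 TPM in vehicle livers (SD, n = 3 each; change -1.78 ± 0.27, SE; limma, adjusted p = 0.000379). Plaur, the urokinase receptor, was the one that rose, with 4.97 ± 0.67 TPM in CCl4 livers and 0.08 ± 0.06 TPM in vehicle livers. Plaur passed the filter only through the CCl4 libraries, so its presence in the test already required a difference. Hgf and Met, ligand and receptor, therefore moved in opposite directions in liver. The change of Met remained negative under each of the 4 other scalings and missed the threshold under 1 of them, with a limma adjusted p of 0.0532. Plg and Klkb1, proenzymes made by hepatocytes, were lower as well and stayed so under each scaling.

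For Lrat, 19 of 26 retinoid storage and metabolism genes were tested, with a median of -0.75, close to the -0.59 of all genes. Of these, 5 were higher, among them Lpl and Cyp26b1, 12 were lower and 2 were not called (Cyp26a1 and Plin2). Over all genes tested 10.3% were called higher and 51.1% lower. Of the 19, 2 passed the filter only through the CCl4 libraries, Cyp26b1 among them. Lpl, lipoprotein lipase, averaged 15.8 ± 5.36 TPM in CCl4 livers and 2.30 ± 0.47 TPM in vehicle livers (SD, n = 3 each). Cyp26b1, which degrades retinoic acid, averaged 3.73 ± 0.91 TPM in CCl4 livers and 0.45 ± 0.18 TPM in vehicle livers. Rxra, a retinoid X receptor, averaged 14.0 ± 5.64 TPM in CCl4 livers and 48.8 ± 5.56 TPM in vehicle livers. The 12 lower calls depended on scaling: 6 remained in number without the mitochondrial genes and 0 without those and the 10 most abundant genes.

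For Reln, 2 of 5 receptor and adaptor genes were tested: Fyn, a kinase in reelin signalling that immune cells also express, was higher, and Pafah1b1 was not called. Fyn passed the filter only through the CCl4 libraries. Both reelin receptors, Vldlr and Lrp8, were below the filter, at 0.25 ± 0.08 and 0.20 ± 0.09 TPM in CCl4 livers and at 0.11 ± 0.05 and 0.0033 ± 0.0058 TPM in vehicle livers (SD, n = 3 each).

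Among 26 TGF-beta ligands, receptors and targets, 17 were tested, with 10 higher, none lower, 7 not called and a median of 0.92. Of the 17, 5 passed the filter only through the CCl4 libraries, and over all genes tested 10.3% were called higher. Tgfb1, the ligand best known in fibrosis, averaged 7.92 ± 4.29 TPM in CCl4 livers and 0.68 ± 0.07 TPM in vehicle livers (SD, n = 3 each). Tgfbi, a matrix protein named for its induction by TGF-beta, averaged 13.9 ± 4.92 TPM in CCl4 livers and 1.22 ± 0.25 TPM in vehicle livers. Both genes are also expressed by macrophages.

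The calls in the contractile program went both ways on the scale used here and depended on scaling. Of 20 genes of serum response factor, its MRTF coactivators and their smooth muscle targets, 15 were tested, with a median of 0.30. Of these, 6 were higher, 4 were lower (Mrtfb, Cnn3, Myl6 and Mylk) and 5 were not called (Srf, Tpm2, Actn1, Vcl and Zyx). Over all genes tested 10.3% were called higher and 51.1% lower. Of the 15, 2 passed the filter only through the CCl4 libraries. Csrp1, a LIM-domain protein, averaged 11.6 ± 3.84 TPM in CCl4 livers and 1.45 ± 0.13 TPM in vehicle livers, and Tpm4, a tropomyosin, averaged 34.2 ± 18.9 TPM in CCl4 livers and 3.89 ± 0.72 TPM in vehicle livers (SD, n = 3 each). There were 9 higher and 0 lower calls with median-ratio scaling, 8 and 1 with quantile normalization, 10 and 0 without the mitochondrial genes, and 13 and 0 without these and the 10 most abundant genes. Cnn1, Myocd and Actg2, which mark differentiated smooth muscle, were listed at 0 in all 6 liver libraries.

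Markers of other cells moved with the 10 genes, and their part in the result was not tested. Over all genes tested in liver 10.3% were called higher and 51.1% lower. All 11 liver endothelial markers rose, with a summed level of 199.7 to 646 TPM in CCl4 livers, against 33.9 to 41.6 TPM in vehicle livers, and so did all 11 Kupffer cell and macrophage markers tested of 12, with 199.9 to 640 TPM in CCl4 livers, against 34.95 to 84.4 TPM in vehicle livers. Neutrophil markers summed to 33.1 to 352 TPM in CCl4 livers, against 0.12 to 0.86 TPM in vehicle livers, and the 4 of 8 that were tested, all past the filter only through the CCl4 libraries, were higher with a median of 3.95. Cholangiocyte markers summed to 26.7 to 57.9 TPM in CCl4 livers, against 4.24 to 6.61 TPM in vehicle livers. The 2 of 6 tested were higher: Spp1, with a change of 2.86, and Sox9, with 0.64. Spp1 is also counted among the activated myofibroblast markers. The mean log2 changes were 2.70 for the endothelial and 2.20 for the macrophage list, while that of the 10 genes was 2.03. The 10 hepatocyte markers were all called lower, with a summed level of 12454 to 29741 TPM in CCl4 livers, against 62998 to 70477 TPM in vehicle livers; 5 were called lower and 1 higher without the mitochondrial and the 10 most abundant genes. Less the endothelial mean in the same library, the mean of the 10 genes was -1.82 ± 0.50 in CCl4 livers and -1.14 ± 0.15 in vehicle livers (SD, n = 3 each) on the log2(TPM + 1) scale, which compresses the members near 1 TPM.

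Other mesenchymal lists did not all move alike. Of 10 vascular smooth muscle markers, 2 were tested, Smtn higher and Rbpms2 lower. Smtn passed the filter only through the CCl4 libraries. The summed level of the list was 6.60 to 11.1 TPM in CCl4 livers, against 16.4 to 17.4 TPM in vehicle livers, most of it Rbpms2. Pericyte markers summed to 16.4 to 44.4 TPM in CCl4 livers, against 3.79 to 5.34 TPM in vehicle livers, most of it Rgs5, which stellate cells share. Of the 8 pericyte markers, 4 were tested, with 3 higher, 1 lower and a median of 2.09. Of these 4, 2 passed the filter only through the CCl4 libraries. Portal fibroblast markers summed to 8.26 to 23.1 TPM in CCl4 livers, against 6.02 to 8.11 TPM in vehicle livers, with Gas6, the one tested, not called. Mesothelial markers summed to 3.99 to 16.5 TPM in CCl4 livers, against 0.32 to 0.51 TPM in vehicle livers. Podxl, the one tested, passed the filter only through the CCl4 libraries and was called higher, with a change of 1.95. CCl4 replicate 2, which had the highest Des and Sparc, was the highest for Msln, the mesothelin gene, at 2.83 TPM. That was not particular to mesothelial markers. The same library had the highest liver sums of endothelial, macrophage, neutrophil, cholangiocyte, pericyte and portal fibroblast markers.

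In dorsal skin CX3CR1+ cells the levels followed another order. Acta2, Dcn and Sparc were on average far above their liver levels. The quiescent stellate markers were scarce there, but they were low in vehicle liver too. Hgf averaged 1.56 TPM in skin vehicle libraries, against 0.11 TPM in vehicle livers. Lrat and Reln went the other way, with 0.08 and 0.33 TPM in skin vehicle libraries, against 0.33 and 1.43 TPM in vehicle livers. Levels in the 2 tissues differ in strain, cell source and library method together, and no test was made of them.

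Of the 10 genes, 7 passed the filter in skin and limma called none of them in either direction, as for the 13767 genes tested there, of which 0.00% were called (288 had an unadjusted p under 0.05). Every member's groups overlapped. The adjusted p of each of the 7 was 1.00.

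**Figure D4:**
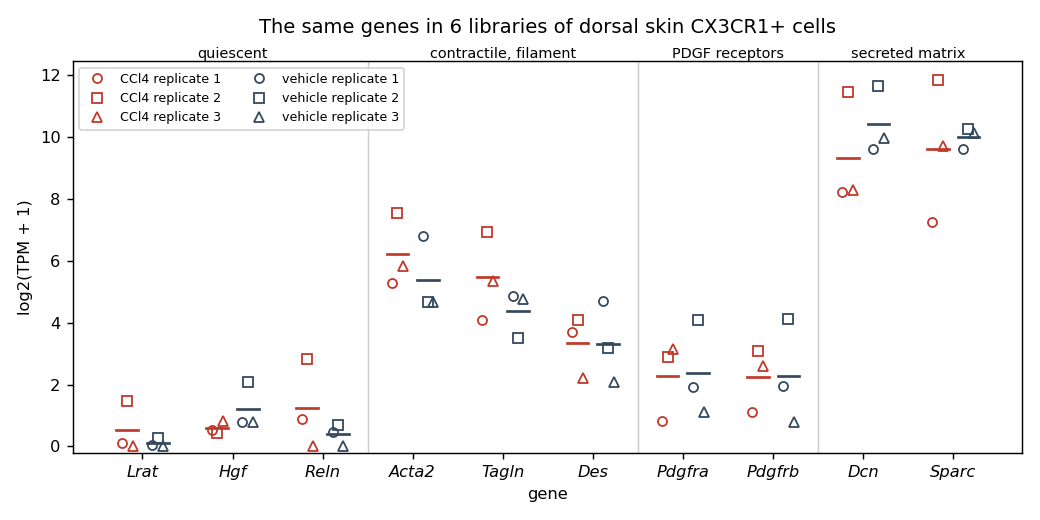
Level of each of the 10 genes, as log2(TPM + 1), in the 3 CCl4 (red) and the 3 vehicle (dark blue) libraries of dorsal skin CX3CR1+ cells; symbols mark the replicates and bars the group means. The groups overlap for every gene, and Lrat, Hgf and Reln are mostly below 1 TPM, that is below 1 on this axis.

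Lrat had 0.08, 1.76 and 0 TPM in skin CCl4 libraries, against 0.03, 0.21 and 0 TPM in skin vehicle libraries. Reln had 0.84, 6.03 and 0 TPM in skin CCl4 libraries, against 0.39, 0.60 and 0.01 TPM in skin vehicle libraries. Hgf had 0.45, 0.35 and 0.77 TPM in skin CCl4 libraries, against 0.71, 3.24 and 0.73 TPM in skin vehicle libraries. A single library, CCl4 replicate 2 for Lrat and Reln and vehicle replicate 2 for Hgf, held most of the signal of each quiescent marker. None passed the filter, and exact permutation p values were 0.7 for Lrat, 0.5 for Reln and 0.3 for Hgf. The differences in mean log2(TPM + 1) were 0.42, 0.84 and -0.62 in that order of genes, and 0.0051, 0.49 and -0.68 without CCl4 replicates 2 and 3.

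Acta2 had 38.28, 187.58 and 56.02 TPM in skin CCl4 libraries, against 109.98, 24.51 and 24.66 TPM in skin vehicle libraries. Tagln had 16.15, 121.69 and 40.01 TPM in skin CCl4 libraries, against 28.45, 10.37 and 26.10 TPM in skin vehicle libraries. Both were highest in CCl4 replicate 2, and limma called neither of their changes, 0.85 ± 0.83 for Acta2 and 1.08 ± 0.82 for Tagln (SE). Without CCl4 replicates 2 and 3, a choice made after seeing the data that leaves 1 CCl4 library, the differences were -0.087 for Acta2 and -0.28 for Tagln. Acta2 was 1.40 to 2.37 times Tagln in skin CCl4 libraries and 0.945 to 3.87 times Tagln in skin vehicle libraries, whereas in liver it was 0.143 to 0.245 of Tagln with CCl4.

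Des had 12.13, 15.86 and 3.61 TPM in skin CCl4 libraries, against 24.97, 8.02 and 3.21 TPM in skin vehicle libraries, with a change of 0.02 ± 0.86 (SE). Pdgfra had 0.76, 6.46 and 7.85 TPM in skin CCl4 libraries, against 2.77, 16.16 and 1.17 TPM in skin vehicle libraries. Pdgfrb had 1.14, 7.41 and 5.03 TPM in skin CCl4 libraries, against 2.83, 16.40 and 0.72 TPM in skin vehicle libraries. The receptor genes ran in parallel, with vehicle replicate 2 highest for both, and their changes were -0.09 ± 0.95 for Pdgfra and -0.03 ± 0.94 for Pdgfrb (SE). Without CCl4 replicates 2 and 3 the differences were 0.40 for Des, -1.56 for Pdgfra and -1.18 for Pdgfrb. The CCl4 library left, replicate 1, was the lowest for dermal fibroblast markers.

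Dcn had 298.33, 2788.17 and 310.28 TPM in skin CCl4 libraries, against 778.43, 3259.82 and 1001.31 TPM in skin vehicle libraries. Sparc had 153.45, 3708.54 and 837.36 TPM in skin CCl4 libraries, against 777.47, 1224.14 and 1132.21 TPM in skin vehicle libraries. Sparc spread widely among the CCl4 libraries and Dcn in both groups, and the changes were -1.10 ± 0.93 for Dcn and -0.39 ± 0.98 for Sparc (SE). Without CCl4 replicates 2 and 3 the differences were -2.19 for Dcn and -2.73 for Sparc, again from the CCl4 library lowest for dermal fibroblast markers.

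**Figure D5:**
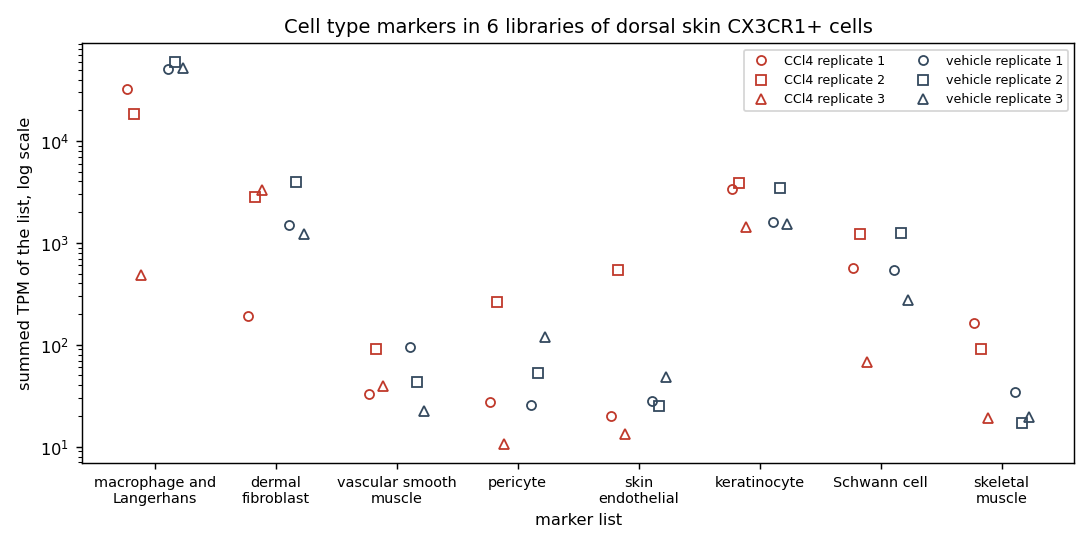
Summed TPM (log axis) of 8 cell type marker lists in each of the 6 libraries of dorsal skin CX3CR1+ cells, CCl4 in red and vehicle in dark blue, with symbols for replicates. CCl4 replicate 3 (triangle) is far below the others for macrophage and Langerhans cell markers, and CCl4 replicate 2 (square) is far above them for endothelial markers.

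Markers of cells other than CX3CR1+ ones also varied between the skin libraries, in part with the members' levels, and their part in these values was not tested. Macrophage and Langerhans cell markers summed to 32316, 18295 and 479 TPM in skin CCl4 libraries, against 50450, 58843 and 51529 TPM in skin vehicle libraries. Dermal fibroblast markers summed to 190.2, 2834 and 3283 TPM in skin CCl4 libraries, against 1507, 3982 and 1223 TPM in skin vehicle libraries, and the library lowest for them, CCl4 replicate 1, was also lowest for Pdgfra, Dcn and Sparc. CCl4 replicate 3, however, combined a high fibroblast sum with a Dcn level of 310.28 TPM, close to the lowest. Pericyte markers summed to 27.3, 265.7 and 10.6 TPM in skin CCl4 libraries, against 25.8, 53.0 and 119.9 TPM in skin vehicle libraries, so that the highest library for them, CCl4 replicate 2, was also the highest for Acta2, Tagln and Lrat. The other libraries did not follow that order: CCl4 replicate 3 had the lowest pericyte sum with Acta2 at 56.02 TPM, vehicle replicate 1 had a low sum with Acta2 at 109.98 TPM, and vehicle replicate 3 had the second highest sum with Acta2 at 24.66 TPM. Endothelial markers in CCl4 replicate 2 summed to 543.8 TPM, while CCl4 replicates 1 and 3 held 20.1 and 13.4 TPM and the skin vehicle libraries 25.3 to 47.9 TPM.

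Whether the changes differed between the tissues was tested for the members that passed the filter in both. The liver change less the skin change was 4.70 ± 1.09 for Dcn, 4.23 ± 1.20 for Sparc and 0.65 ± 0.88 for Tagln (SE). The limma adjusted p was 0.0733 for Dcn, 0.104 for Sparc and 0.724 for Tagln, so none was called, where 0.216% of the 9255 genes tested were. That Dcn and Sparc were called in liver and not in skin therefore does not show that their changes differ. The result for Dcn lay close to the threshold: without skin CCl4 replicate 2 the adjusted p was 0.0108 for Dcn and 0.0294 for Sparc.

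The genes whose levels ran closest to Acta2 and to Lrat over the 12 libraries differed. For Acta2 they were Tpm2, Myl9 and Cdc42ep3, with Pearson r of log2(TPM + 1) of 0.992, 0.991 and 0.989 among 12792 genes. Tpm2 encodes a tropomyosin and Myl9 a regulatory myosin light chain, and both are parts of the contractile apparatus. For Lrat they were Pcdh12, Kdr and Ptprb, with r of 0.977, 0.975 and 0.975; all 3 are known from endothelial cells, and Kdr encodes the main VEGF receptor. An r over 0.95 was found for 215 genes with Acta2 and for 11 with Lrat. These correlations describe 12 libraries that fall into 4 groups, and both sets differ strongly in level between groups. Myl9, for example, averaged 2.15 TPM in CCl4 livers and 220.9 TPM in skin CCl4 libraries. Kdr averaged 23.5 TPM in CCl4 livers, against 2.64 TPM in vehicle livers and 3.09 TPM in skin CCl4 libraries.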

How the data were processed

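The authors deposited 1 table of TPM for 57180 genes and 12 libraries, and each column name matched 1 sample label. The submitters' processing notes name RSEM, StringTie, HISAT2 and fastp and the build GRCm39, without versions or roles. The labels give 1 stranded poly(A) library protocol for all samples, which does not describe smart-seq. TPM keeps no depth, so depth is unknown, and an exact 0 may be a failed estimate.

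Gene IDs were given symbols from a name table, which matched 51884 of them. Each tissue was fitted alone with limma 3.58.1 in R 4.3.3 (trend, two-sided) on log2(TPM + 1), for genes reaching 1 TPM in 3 or more of 6 libraries, with a Benjamini-Hochberg threshold of 0.05. Tissues were compared in 1 model of 4 group means over genes past the filter in both. Members below the filter were compared by exact permutation. The fit was tested on simulated data. Promoters are RefSeq's (GRCm38.p6), and transcript overlaps are from GENCODE M21; the table's own build was not used for coordinates.

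The members, lists and tests were chosen with earlier results of these data known. The text names all 10 members, up to 4 genes with the lowest p of each pathway list, up to 3 of each marker list, and the 3 genes most like Acta2 and Lrat; Pdgfb, Pparg, Fn1, Vldlr, Lrp8, Pcsk7, Gm48529, Gm43489, Cnn1, Myocd, Actg2 and the further genes behind counts of 5 or fewer were added after their values were seen. Alternatives were other pseudocounts, filters and scalings, a replicate block, 1 fit of 12 libraries, robust eBayes, a minimum change, and leaving out each library.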

Additional observations from a re-analysis of the deposited data

How the results depend on the processing

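The liver changes of the 10 single members kept their direction: they gave 157 values under the alternatives run, all of them positive, and of those with a test 1 missed the threshold (Tagln in 1 fit of 12 libraries, adjusted p = 0.0752). The number of members called higher in liver was 10 with no filter and 3 with a filter at TPM 5, which removes genes from the test. Genes called in liver, 6377 as reported, were 4084 with a filter at TPM 5, 3831 with TPM rescaled without mitochondrial genes, 1736 in 1 fit of 12 libraries and 700 with a minimum log2 change of 1. In skin, 1 gene was called in 1 fit of 12 libraries and 1 gene without CCl4 replicates 2 and 3, where 0 were called otherwise.

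List calls in liver did not all keep theirs: Fn1 turned from called lower to called higher, and the retinoid list median was 0.48, without mitochondrial and the 10 most abundant genes. Activated less quiescent in liver, -0.54 as reported, was 0.014 with a pseudocount of 5 and 0.13 without Des and both PDGF receptors, which removes the lowest genes; the cause of the first was not tested.

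The test of liver change less skin change was the least stable. Its 20 calls became 176 with a pseudocount of 0.1, 66 with no filter, 11 with a filter at TPM 5, 206 with median-ratio scaling, 76 with quantile normalization, 127 without mitochondrial genes, 656 without these and the 10 most abundant genes and 5 with a minimum log2 change of 1, and ranged from 4 (without liver vehicle replicate 1) to 419 (without skin vehicle replicate 3) when 1 library was left out; the cause was not tested. Calls above 1.5 times 20 also came without liver CCl4 replicate 3, with 233, without skin CCl4 replicate 1, with 322, and without skin CCl4 replicate 2, with 73. Of the members, 1 was called with a pseudocount of 0.1, 1 with no filter, 1 with median-ratio scaling, 1 without mitochondrial genes and 2 without these and the 10 most abundant genes, against 0 as reported, and from 0 to 2 with a library left out. The adjusted p of Dcn ranged from 0.00874 to 0.432 over all alternatives. The difference for Tagln was -0.19 with a pseudocount of 5 and ranged from -0.029 to 1.39 with a library left out.

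Same-numbered CCl4 and vehicle samples had r from -0.04 to 0.08 in liver, and of 0.59, 0.09 and 0.35 for replicates 1, 2 and 3 in skin. Not every sample correlated best with its own number. With 3 libraries a group, these correlations cannot decide whether same-numbered samples were paired. A replicate block gave 52 genes called for liver less skin, 1 of them a member. In liver, members called did not change with the block.

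Skin members stayed uncalled throughout, and their signs were unstable. Des was -0.019 with a pseudocount of 5 and -0.085 without mitochondrial and the 10 most abundant genes. Pdgfra was 0.027 with median-ratio scaling and 0.088 with quantile normalization. Pdgfrb was 0.090 with a pseudocount of 0.1, 0.10 with median-ratio scaling and 0.20 with quantile normalization. Acta2 was -0.087 and Tagln -0.28 without CCl4 replicates 2 and 3, an alternative chosen after seeing the data under which Pdgfra was -1.56, Pdgfrb -1.18, Dcn -2.19 and Sparc -2.73. This alternative left only CCl4 replicate 1, the library lowest for dermal fibroblast markers. With 1 library left out, Des ranged from -0.60 to 0.71, Pdgfra from -0.72 to 0.77, Pdgfrb from -0.78 to 0.89 and Sparc from -1.51 to 0.78.

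Limits: 3 libraries a group, unknown depth, vehicle levels of several members within a few hundredths of a TPM of 0, and tissues that differ also in strain, cells and library method.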
